A study of Mus musculus with 11 samples.

Results

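The genes described here encode the pyruvate dehydrogenase complex and enzymes of the tricarboxylic acid (TCA) cycle (18 genes, called the TCA set) and proteins of fatty acid uptake and beta-oxidation (25 genes, called the fatty acid set). They were taken by gene symbol from a written list that uses no expression threshold, drawn up with earlier results of these data known. All 43 were among the 18269 genes of the deposited CPM table (reads of a gene per 1000000 reads of the library). RNA had been sequenced from tibialis anterior, a shin muscle made mostly of fast fibres, of C57BL/6 mice that were 21 to 24 months old in every group. The mice had been injected with 1 of 3 fluids. These were young serum from which extracellular vesicles (EVs, small membrane particles shed by cells) had been depleted (replicates 2, 3 and 4), complete young serum (replicates 1, 2, 3 and 4) and saline (replicates 2, 3, 4 and 6). The protocol headings name an injury model. The labels do not say whether each library came from an animal of its own, so the p-values measure the spread between these libraries, which may be technical. The design sets both sera against saline and EV-depleted against complete young serum.

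In a muscle fibre, pyruvate from glycolysis and fatty acids from blood or stored fat both end as acetyl-CoA in the mitochondrion. Pyruvate dehydrogenase makes acetyl-CoA from pyruvate. Fatty acids are taken up, activated to acyl-CoA, passed into the mitochondrion as carnitine esters and shortened in repeated rounds of beta-oxidation. The TCA cycle oxidises acetyl-CoA from either source, and slow and oxidative fibres are known for a higher content of both pathways than fast glycolytic fibres. Many of these genes are known targets of the nuclear receptors PPAR and ERR and of the coactivator PGC-1alpha.

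Promoters of 4 members are shown because these genes were among the 4 smallest p-values of their set in more than 1 comparison; Acat1, which tied with them, had no entry. Each is the 250 bases before the RefSeq transcript start on GRCm38.p6 (mm10), 5' to 3' on the strand of the gene, and capitals mark matches to the motifs searched. They are Pdhb at chr14:8172993-8173242 (minus strand), Sucla2 at chr14:73552536-73552785 (plus), Ogdh at chr11:6291409-6291658 (plus) and Acadm at chr3:153944644-153944893 (minus). Ogdh has several RefSeq starts, and the one shown is nearest to the deposited gene start among those whose first bases lie in a GENCODE M21 transcript. The Sucla2 window lies inside the deposited gene, which starts at 73525319.
Pdhb: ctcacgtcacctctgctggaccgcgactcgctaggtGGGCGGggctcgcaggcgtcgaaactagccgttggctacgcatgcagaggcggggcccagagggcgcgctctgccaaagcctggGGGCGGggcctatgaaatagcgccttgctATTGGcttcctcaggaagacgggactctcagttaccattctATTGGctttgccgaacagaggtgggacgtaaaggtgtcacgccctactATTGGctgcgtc
Sucla2: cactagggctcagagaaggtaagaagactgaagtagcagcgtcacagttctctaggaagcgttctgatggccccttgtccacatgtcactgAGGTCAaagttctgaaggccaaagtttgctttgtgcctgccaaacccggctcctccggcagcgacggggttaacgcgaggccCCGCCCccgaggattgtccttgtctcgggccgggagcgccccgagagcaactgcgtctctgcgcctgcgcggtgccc
Ogdh: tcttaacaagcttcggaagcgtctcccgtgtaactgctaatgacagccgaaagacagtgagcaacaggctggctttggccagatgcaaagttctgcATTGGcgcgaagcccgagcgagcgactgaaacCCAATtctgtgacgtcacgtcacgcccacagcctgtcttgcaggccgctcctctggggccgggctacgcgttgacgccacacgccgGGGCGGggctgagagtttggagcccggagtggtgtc
Acadm: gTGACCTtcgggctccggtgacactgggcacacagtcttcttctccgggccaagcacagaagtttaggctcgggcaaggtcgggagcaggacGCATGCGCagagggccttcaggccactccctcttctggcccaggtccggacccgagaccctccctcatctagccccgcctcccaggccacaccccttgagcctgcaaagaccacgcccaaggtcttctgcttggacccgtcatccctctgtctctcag

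Both strands were searched for TCAAGGTCA (the ERR element), AGGTCA (the nuclear receptor half-site, which lies inside TCAAGGTCA), GCATGCGC (the NRF1 core), GGGCGG (the GC box) and CCAAT (the CCAAT box). RefSeq had an entry for 36 of the 43 members, with 44 windows between them. For 32 of the 44, the bases after the start were found in a GENCODE M21 transcript of the gene. The windows and genes set beside the members are all those in RefSeq, whether or not the gene is expressed in muscle. GGGCGG was found in 26 of the 44 member windows, against 32.7% of all 32851 windows of the same length, and CCAAT in 21 of 44, against 33.8%. GCATGCGC was in 5 of 44 windows, of 4 genes, against 2.26%, AGGTCA in 7 of 44, against 14.0%, and TCAAGGTCA in 0 of 44, against 0.387%. Some windows of 1 gene overlap, as in Ogdh. Counted by gene, GGGCGG was in 24 of 36 members against 35.4% of 27025 genes, and CCAAT in 17 of 36 against 37.5%. By gene GCATGCGC was in 4 of 36 against 2.56%, AGGTCA in 7 of 36 against 15.8% and TCAAGGTCA in 0 of 36 against 0.422%. In the printed windows, Pdhb held GGGCGG 2 times and CCAAT 3 times, the nearest CCAAT at -12 from the start. Sucla2 held AGGTCA at -159 and GGGCGG at -77. Ogdh held GGGCGG at -36 with CCAAT at -122 and -154. Acadm held AGGTCA at -249 and GCATGCGC at -158. These are matches of letters and were not tested as binding sites.

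Levels of different genes were compared per length, as mean CPM per kb of exon (GENCODE M21 exon union). Fabp3, the heart and muscle fatty acid binding protein, was the highest member at 388 CPM per kb. The malate dehydrogenases followed with 206 for Mdh2 and 194 for Mdh1. Next came Ogdh (2-oxoglutarate dehydrogenase) with 160, Etfb (the beta chain of electron transfer flavoprotein) with 158 and Pdha1 (the catalytic alpha chain of pyruvate dehydrogenase) with 139 CPM per kb. Ucp3, the muscle uncoupling protein, had 13.8, Echs1 (enoyl-CoA hydratase) 11.3, Suclg2 (the GTP-forming beta chain of succinyl-CoA ligase) 9.22 and Eci2 (an enoyl-CoA isomerase) 8.44 CPM per kb. Sucla2, the ATP-forming counterpart of Suclg2, had 90.3 CPM per kb. These ranks depend on the annotated length, since the union adds the exons of all transcripts of a gene. Echs1 had 93.8 CPM over 8286 bases, while Eci1 had 92.2 CPM over 2127 bases, which gave 43.4 CPM per kb. All 43 members were at 27.4 CPM or more in every library and passed the filter on low values.

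The libraries were of similar depth, with 36.4 to 42.2 times 1000000 reads each as read from the steps of the low values. Of the 18269 genes, 13187 were tested. The tissue label fitted the muscle markers, with 21890 to 39378 CPM of Ckm and 26113 to 38992 CPM of Acta1 in all 11 libraries. Saline replicates 4 and 6 stood apart in markers of fat and of slow fibres, and values without them are given beside several results. In bulk muscle, fewer cells or fibres of a type and less RNA per cell cannot be told apart.

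In muscle given young serum, transcripts of fatty acid oxidation averaged lower than in saline muscle, with a smaller median difference in the TCA set, and no member passed the test. The median log2 fold change was -0.25 over the fatty acid set (range -0.64 to 0.45) and -0.14 over the TCA set (-0.32 to 0.22), against -0.02 over all 13187 genes. Of the fatty acid set 22 of 25 members were lower, and of the TCA set 13 of 18, while 52.5% of all genes tested were lower. At an adjusted p under 0.05 (limma with Benjamini-Hochberg adjustment over all genes), 0 of 43 members and 0% of the table passed. The smallest adjusted p was 0.180 in the TCA set and 0.187 in the fatty acid set. At an unadjusted p under 0.05, 1 TCA member (Pdhb) and 4 fatty acid members (Etfb, Echs1, Hadhb, Hadh) were lower and none was higher, against 11.4% of the table lower and 10.5% higher. Of the fatty acid set 1 member was left when saline replicate 6 was dropped, 2 when saline replicate 4 was, and 0 when young serum replicate 1 or 4 was. Only Idh3g lay below every saline library in all young serum libraries. Of all genes tested, 6.08% did so and 6.09% lay above.

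The direction rested on few libraries. Young serum replicates 1 and 4 held the lowest value of 13 of 18 TCA members and 21 of 25 fatty acid members. Without both, a choice made after seeing the data, the medians against saline were 0.02 for the TCA set and 0.069 for the fatty acid set, with 30 of 43 members higher. Without replicate 1 alone they were -0.08 and -0.12, and without replicate 4 alone -0.08 and -0.14. Leaving out saline replicate 6 gave -0.07 and -0.13, and leaving out saline replicates 4 and 6 gave -0.06 for both sets, beside a median of 0.05 over all genes.

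In muscle given EV-depleted young serum, members of both sets averaged higher than in saline muscle, again with no member past the test. The median log2 fold change was 0.15 over the TCA set (range -0.01 to 0.87) and 0.20 over the fatty acid set (-0.21 to 0.41), against -0.00 over all genes. In the TCA set 17 of 18 members were higher and in the fatty acid set 20 of 25, while 50.4% of all genes were lower. Of the members 0 passed at an adjusted p under 0.05, as did 0% of the table. The smallest adjusted p by limma was 0.398 and 0.404 in the TCA and fatty acid sets. At an unadjusted p under 0.05, 2 TCA members (Pdha1, Dld) and 3 fatty acid members (Acadm, Cpt1b, Etfdh) were higher and none was lower, against 6.49% of the table higher and 5.59% lower. Under median ratio scaling these were 1 and 0 members. Acadm and Etfa were above every saline library, where 3.39% of the table was above and 4.03% below. This count of 2 was not stable: it was 14 with saline replicate 6 left out (4.88% of the table) and 8 with saline replicate 2 left out (8.78%). Dropping EV-depleted serum replicate 4 gave 8 (4.43%), and dropping replicate 3 gave 7 (12.0%). Without saline replicate 3 the TCA median was 0.10, and without saline replicates 4 and 6 the medians were 0.16 and 0.35, with 42 of 43 members higher and a median of 0.06 over all genes.

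In muscle given EV-depleted young serum, 42 of 43 members averaged higher than in muscle given complete young serum, the exception being Ucp3, and no member passed the test. The median log2 fold change was 0.24 over the TCA set (range 0.04 to 1.10) and 0.42 over the fatty acid set (-0.28 to 1.03), against 0.005 over all genes, of which 48.7% were lower. At an adjusted p under 0.05, 0 of 43 members and 0% of the table passed, with every adjusted p by limma at 0.99998 for the members. At an unadjusted p under 0.05, 5 TCA members and 10 fatty acid members were higher and none was lower, against 1.75% of the table higher and 0.478% lower. The counts of 5 and 10 were 1 and 4 under median ratio scaling and 2 and 9 under quantile normalization. They were 2 and 3 without young serum replicate 1, 1 and 3 without young serum replicate 4, 3 and 4 without EV-depleted serum replicate 3, and 1 and 7 without EV-depleted serum replicate 2. Above every young serum library lay 6 TCA members (Pdhb, Pdhx, Idh2, Idh3b, Sucla2, Suclg2) and 8 fatty acid members (Acadm, Acadl, Acadvl, Hadha, Eci1, Decr1, Etfa, Acat1), against 4.16% of the table above and 1.96% below. The young serum libraries are shared with the comparison to saline, so the lower values there and the higher values here are not independent.

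Without young serum replicates 1 and 4, 37 of 43 members were still higher in EV-depleted serum, with medians of 0.12 in the TCA set and 0.17 in the fatty acid set. At an unadjusted p under 0.05 there were then 0 members by limma, and 0 at the adjusted threshold. In that fit 14 members lay above both remaining young serum libraries, against 9.04% of the table. Acadm, Acat1, Decr1, Etfa, Idh3b, Mdh1 and Pdhb then had log2 fold changes of 0.16 to 0.27, where with all libraries they had 0.32 to 0.54.

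**Figure D1:**
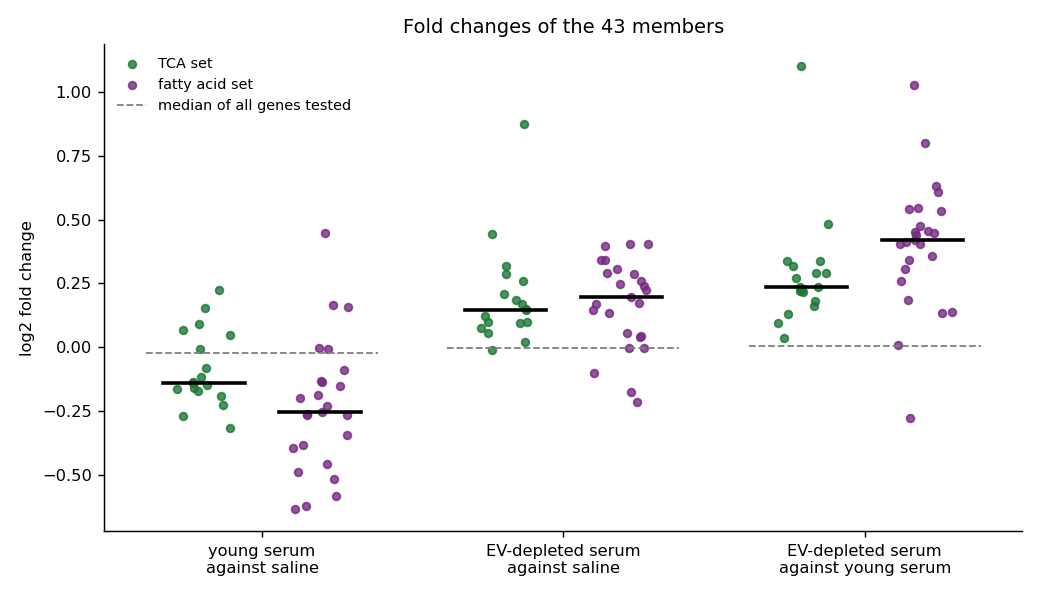
Log2 fold change of each of the 43 members (points; TCA set and fatty acid set side by side) in the 3 comparisons, with the median of each set as a black bar and the median of all tested genes as a dashed line. The medians were -0.14 and -0.25 for young serum against saline, 0.15 and 0.20 for EV-depleted serum against saline, and 0.24 and 0.42 for EV-depleted against young serum.

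The subunits of pyruvate dehydrogenase did not share 1 order of the group means. Pdha1, the alpha chain of the E1 enzyme and X-linked, had 618, 578 and 658 CPM in EV-depleted serum, 464, 586, 515 and 459 CPM in young serum and 595, 399, 455 and 392 CPM in saline. Saline replicate 2 and young serum replicate 2 lay within the range of the EV-depleted serum libraries, and the other 6 libraries below it. In EV-depleted serum its log2 fold change against saline was 0.44 ± 0.15 (SE; 1.36-fold; adjusted p 0.398 by limma). Against young serum it was 0.29.

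Pdhb, the beta chain of the same enzyme, had 253, 271 and 256 CPM in EV-depleted serum, 198, 216, 235 and 177 CPM in young serum and 254, 227, 267 and 279 CPM in saline. The young serum values were the low ones: they lay below all EV-depleted serum libraries, and saline replicate 3, at 227, was within their range. The log2 fold change was -0.32 ± 0.11 in young serum against saline (0.80-fold; adjusted p 0.18 by limma). It was 0.02 in EV-depleted serum against saline and 0.34 ± 0.12 in EV-depleted against young serum (1.26-fold; adjusted p 0.99998). So the group means of 2 chains of 1 enzyme, which assemble together, stood in different orders: Pdha1 was lowest in saline and Pdhb in young serum. For Pdha1 this order was within the spread between libraries. Its log2 fold change in young serum against saline was 0.15 ± 0.14 (adjusted p 0.526 by limma), with all young serum libraries inside the saline range.

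Dlat, the E2 acetyltransferase core of the complex, had 202, 169 and 205 CPM in EV-depleted serum, 152, 187, 173 and 147 CPM in young serum and 188, 128, 171 and 147 CPM in saline. Dld, the E3 dihydrolipoamide dehydrogenase that also serves other 2-oxoacid dehydrogenases, had 212, 181 and 222 CPM in EV-depleted serum, 162, 195, 172 and 151 CPM in young serum and 200.02, 147, 167 and 146 CPM in saline. In both genes saline replicate 2 was the highest saline library, as in Pdha1, and lay within the EV-depleted serum range. Against saline, EV-depleted serum had a log2 fold change of 0.29 ± 0.15 for Dlat (1.22-fold; adjusted p 0.428) and 0.32 ± 0.14 for Dld (1.25-fold; adjusted p 0.411), both by limma. For Dlat it was 0.19 without saline replicate 3. Pdhx, the E3-binding protein, averaged 70.9 ± 5.16 CPM in EV-depleted serum, 60.2 ± 5.26 CPM in young serum and 66.4 ± 7.38 CPM in saline (SD; n = 3, 4 and 4, as in all means below).

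At the entry of the cycle, citrate synthase differed little: Cs averaged 749 ± 34.1 CPM in EV-depleted serum, 687 ± 62.6 CPM in young serum and 689 ± 48.8 CPM in saline. Idh2, the mitochondrial NADP-dependent isocitrate dehydrogenase, was the most variable TCA member, at 407, 454 and 349.5 CPM in EV-depleted serum, 84.7, 314, 327 and 139 CPM in young serum and 232, 144, 131 and 519.8 CPM in saline. The EV-depleted serum libraries were close to each other, while young serum and saline libraries spread over a wide range that held the lowest value, in young serum replicate 1, and the highest, in saline replicate 6. The highest library was 6.13-fold above the lowest. The log2 fold change of EV-depleted serum was 1.10 ± 0.52 against young serum and 0.87 ± 0.52 against saline (adjusted p 0.99998 and 0.455 by limma). Against young serum it was 0.73 without young serum replicate 1 and 0.32 without replicates 1 and 4.

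The NAD-dependent isocitrate dehydrogenase of the cycle is built from alpha, beta and gamma chains. Idh3a, the alpha chain, averaged 489 ± 39.3 CPM in EV-depleted serum, 457 ± 32.9 CPM in young serum and 431 ± 47.0 CPM in saline. Idh3b, the beta chain, had 425, 410.2 and 374 CPM in EV-depleted serum, 302, 373, 349 and 275 CPM in young serum and 375, 347, 323 and 390.0 CPM in saline. EV-depleted serum was above young serum in every library, though only just, with 374 against 373.5 at the nearest pair. This gave a log2 fold change of 0.32 ± 0.12 (1.25-fold; adjusted p 0.99998 by limma). Idh3g, the X-linked gamma chain, had 323, 305 and 252 CPM in EV-depleted serum, 239, 271, 264 and 227 CPM in young serum and 291, 279.8, 273 and 277 CPM in saline. It was lower in every young serum library than in any saline library, at -0.17 ± 0.10 on the log2 scale (0.89-fold; adjusted p 0.336 by limma). The nearest pair, 271 and 273, was almost equal.

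Ogdh, the E1 enzyme of the 2-oxoglutarate dehydrogenase complex, had 1028, 919 and 863 CPM in EV-depleted serum, 793, 1023, 969 and 874 CPM in young serum and 866, 697, 786 and 782 CPM in saline. It was the TCA member that averaged highest in young serum relative to saline. Saline replicates 3, 4 and 6 were lower than all 7 serum libraries. The log2 fold change was 0.22 ± 0.11 in young serum against saline (1.17-fold; adjusted p 0.262 by limma). It was 0.26 ± 0.12 in EV-depleted serum against saline (1.20-fold; adjusted p 0.416) and 0.04 in EV-depleted against young serum. Dlst, the E2 core of that complex, averaged 249 ± 26.8 CPM in EV-depleted serum, 221 ± 35.2 CPM in young serum and 232 ± 21.8 CPM in saline.

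Succinyl-CoA ligase pairs an alpha chain with either an ATP-forming or a GTP-forming beta chain. Sucla2, the ATP-forming chain, had 412, 382 and 415 CPM in EV-depleted serum, 326, 361, 328 and 266 CPM in young serum and 452, 325, 348 and 344 CPM in saline. Its young serum libraries were all below its EV-depleted serum libraries, with a log2 fold change of 0.34 ± 0.14 (1.26-fold; adjusted p 0.99998 by limma). Young serum stood at -0.19 ± 0.13 against saline (0.87-fold; adjusted p 0.359), at -0.11 without young serum replicate 4 and at -0.09 without saline replicate 2. The alpha chain Suclg1 averaged 234 ± 14.6 CPM in EV-depleted serum, 199 ± 20.2 CPM in young serum and 224 ± 29.3 CPM in saline. The GTP-forming chain Suclg2 averaged 47.4 ± 1.41 CPM in EV-depleted serum, 38.9 ± 5.47 CPM in young serum and 42.8 ± 3.13 CPM in saline. All chains had their lowest group mean in young serum.

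Fh1, fumarate hydratase, averaged 223 ± 11.8 CPM in EV-depleted serum, 192 ± 19.7 CPM in young serum and 208 ± 20.3 CPM in saline. Mdh1, the cytosolic malate dehydrogenase of the malate-aspartate shuttle, had 660.2, 606 and 489 CPM in EV-depleted serum, 329, 507, 506 and 353 CPM in young serum and 495, 426, 454 and 662 CPM in saline. Young serum replicates 1 and 4 were low and saline replicate 6 was level with the highest EV-depleted serum library. EV-depleted against young serum gave a log2 fold change of 0.48 ± 0.20 (1.40-fold; adjusted p 0.99998 by limma). Mdh2, the mitochondrial enzyme of the cycle itself, averaged 765 ± 135 CPM in EV-depleted serum, 678 ± 71.4 CPM in young serum and 764 ± 63.2 CPM in saline.

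**Figure D2:**
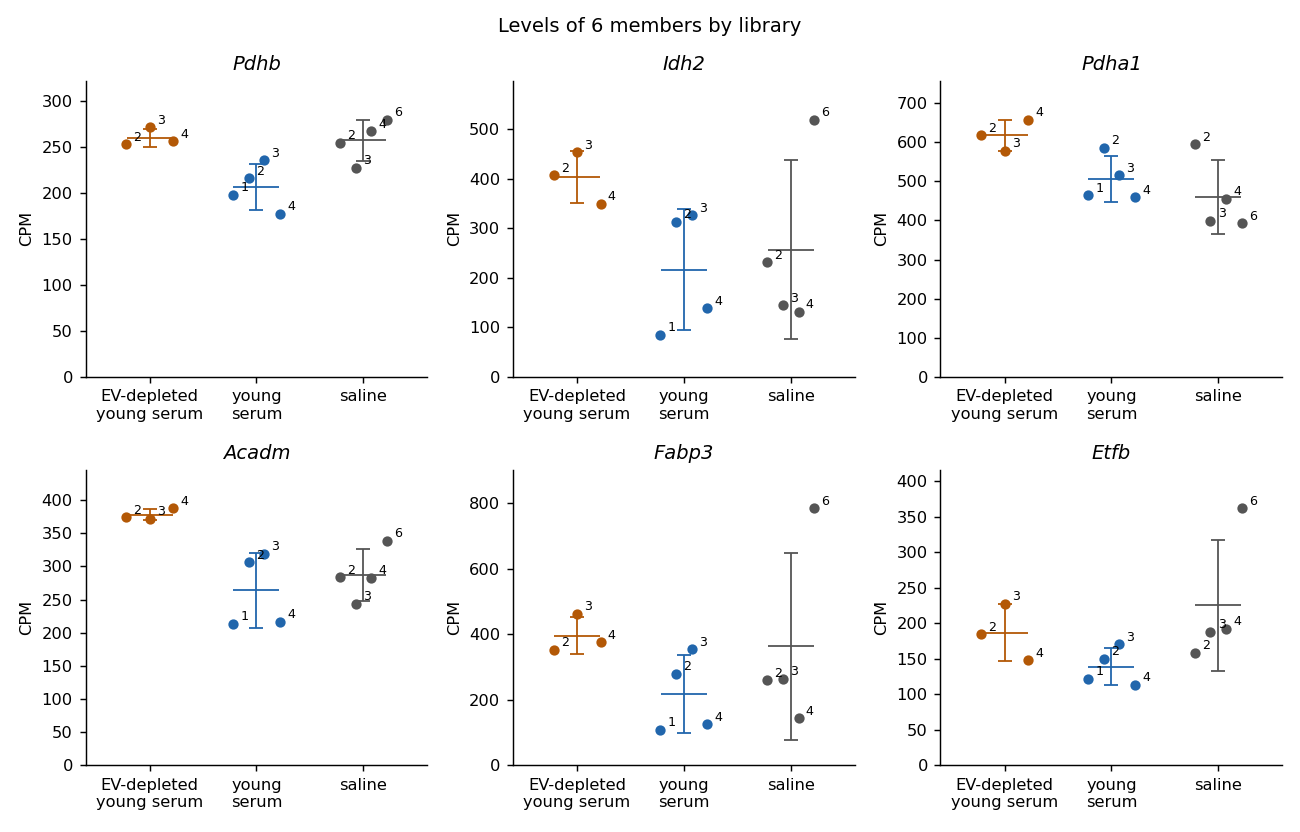
CPM of Pdhb, Idh2, Pdha1, Acadm, Fabp3 and Etfb in each library (points, numbered by replicate), with the group mean and SD, for EV-depleted serum, young serum and saline from left to right. Pdhb and Acadm were above every young serum library in EV-depleted serum; in Etfb saline replicate 6 stood apart at 362 CPM, and in Fabp3 at 785 CPM.

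Uptake genes were among the most variable of the fatty acid set. Fabp3 had 352, 462 and 375 CPM in EV-depleted serum, 109, 279.8, 354 and 126 CPM in young serum and 259, 265, 144 and 785 CPM in saline. The EV-depleted serum values were closer together, saline replicate 6 was far above all others and young serum replicate 1 was lowest, a 7.17-fold range. Lpl, the lipoprotein lipase that frees fatty acids from circulating triglyceride, had 527, 505.5 and 699 CPM in EV-depleted serum, 222, 581, 437 and 204 CPM in young serum and 353, 215, 903 and 700.5 CPM in saline. Cd36, the fatty acid translocase of the plasma membrane, had 217.5, 179.8 and 261 CPM in EV-depleted serum, 115, 232, 180.1 and 105 CPM in young serum and 171, 109, 382 and 207 CPM in saline. In Lpl and Cd36 it was saline replicate 4 that was highest, and young serum replicate 4 lowest. EV-depleted against young serum gave log2 fold changes of 1.03 ± 0.52 for Fabp3, 0.80 ± 0.48 for Lpl and 0.53 ± 0.38 for Cd36, each with an adjusted p of 0.99998 by limma. Without young serum replicates 1 and 4 these were 0.32 for Fabp3, 0.18 for Lpl and 0.09 for Cd36.

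Slc27a1, a fatty acid transport protein, averaged 108 ± 6.89 CPM in EV-depleted serum, 89.3 ± 24.0 CPM in young serum and 106 ± 24.96 CPM in saline. Acsl1, the long-chain acyl-CoA synthetase, averaged 246 ± 49.3 CPM in EV-depleted serum, 223 ± 33.5 CPM in young serum and 236 ± 104 CPM in saline. Saline replicate 4 was its highest library at 389 CPM. Lpl, Cd36 and Acsl1 are expressed by adipocytes as well as muscle fibres. In saline replicate 4 the adipocyte hormone Adipoq was at 319.8 CPM, against 2.89 to 28.8 CPM in the other 10 libraries; the part of fat tissue in the level of these genes was not tested.

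Of the carnitine acyltransferases, Cpt1b, the muscle enzyme at the gate of the mitochondrion, had 309, 299 and 282.5 CPM in EV-depleted serum, 217, 296, 288 and 251 CPM in young serum and 243, 222, 194 and 285 CPM in saline. Among the saline libraries only replicate 6 reached the range of EV-depleted serum. The log2 fold change of EV-depleted serum against saline was 0.34 ± 0.15 (1.27-fold; adjusted p 0.408 by limma). Cpt1b was also one of 3 fatty acid members with a higher mean in young serum than in saline, by a log2 of 0.16; the others were Crat by 0.16 and Ucp3 by 0.45. Cpt2, the inner membrane enzyme, averaged 64.0 ± 7.18 CPM in EV-depleted serum, 51.4 ± 14.0 CPM in young serum and 64.4 ± 9.75 CPM in saline. Crat, the carnitine acetyltransferase that buffers acetyl-CoA, averaged 532 ± 35.7 CPM in EV-depleted serum, 529 ± 38.2 CPM in young serum and 472 ± 20.7 CPM in saline and was the least variable member, with 1.27-fold between its highest and lowest library.

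The acyl-CoA dehydrogenases open each round of beta-oxidation and differ in the chain length they take. Acadm, the medium-chain enzyme, had 374, 372 and 387 CPM in EV-depleted serum, 213, 306, 319 and 217 CPM in young serum and 283, 243, 282 and 338 CPM in saline. Its EV-depleted serum libraries were nearly equal and above all other 8 libraries. The log2 fold change was 0.54 ± 0.16 against young serum (1.46-fold; adjusted p 0.99998 by limma) and 0.41 ± 0.16 against saline (1.32-fold; adjusted p 0.404), the smallest p of the fatty acid set in both comparisons. The long-chain enzyme Acadl averaged 241 ± 21.9 CPM in EV-depleted serum, 164 ± 52.3 CPM in young serum and 193 ± 43.5 CPM in saline. The very-long-chain enzyme Acadvl averaged 377 ± 24.6 CPM in EV-depleted serum, 280.5 ± 59.2 CPM in young serum and 320.5 ± 58.9 CPM in saline. The short-chain enzyme Acads averaged 81.9 ± 7.04 CPM in EV-depleted serum, 68.8 ± 11.9 CPM in young serum and 82.5 ± 10.3 CPM in saline. Acadl and Acadvl followed the order of Acadm, whereas Acads was nearly equal in EV-depleted serum and saline.

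The later steps are carried out by the trifunctional protein on longer chains and by single enzymes on shorter ones. Hadha, its alpha chain, averaged 435 ± 7.47 CPM in EV-depleted serum, 328 ± 79.3 CPM in young serum and 357 ± 71.5 CPM in saline. Hadhb, its beta chain, had 188, 229 and 173 CPM in EV-depleted serum, 103, 152, 176 and 115 CPM in young serum and 168, 174, 154 and 277 CPM in saline. Hadha and Hadhb lie head to head on chromosome 5 with 85 bases between the deposited gene positions, and saline replicate 6, at 277 CPM, was the highest Hadhb library of all. Young serum stood against saline at a log2 fold change of -0.49 ± 0.21 for Hadhb (0.71-fold; adjusted p 0.211 by limma) and -0.13 for Hadha. Without saline replicate 6 they were -0.30 for Hadhb and -0.01 for Hadha.

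Echs1, the enoyl-CoA hydratase, had 93.0, 111 and 84.0 CPM in EV-depleted serum, 60.3, 84.7, 84.6 and 61.2 CPM in young serum and 83.8, 78.1, 122 and 169 CPM in saline. Hadh, the 3-hydroxyacyl-CoA dehydrogenase of shorter chains, had 166, 173 and 144 CPM in EV-depleted serum, 105, 141, 155 and 107 CPM in young serum and 147, 124, 189.6 and 255 CPM in saline. Both had saline replicates 4 and 6 as their highest libraries and young serum replicates 1 and 4 as their lowest. Young serum against saline gave log2 fold changes of -0.58 ± 0.23 for Echs1 (0.67-fold; adjusted p 0.193) and -0.46 ± 0.21 for Hadh (0.73-fold; adjusted p 0.225) by limma. Without saline replicate 6 these were -0.37 for Echs1 and -0.27 for Hadh, and without saline replicates 4 and 6 they were -0.17 for Echs1 and -0.11 for Hadh. Acaa2, a mitochondrial 3-ketoacyl-CoA thiolase, averaged 167 ± 27.2 CPM in EV-depleted serum, 112 ± 40.9 CPM in young serum and 145 ± 48.0 CPM in saline. Acat1, the acetoacetyl-CoA thiolase shared with ketone body use, had 222, 231 and 239.5 CPM in EV-depleted serum, 151, 209, 192 and 149 CPM in young serum and 199, 164, 187 and 225 CPM in saline. Its EV-depleted serum values were above all young serum values, by a log2 of 0.41 ± 0.14 (1.33-fold; adjusted p 0.99998 by limma), and stood at 0.26 ± 0.14 against saline (1.20-fold; adjusted p 0.44).

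Unsaturated fatty acids need auxiliary enzymes. Decr1, the 2,4-dienoyl-CoA reductase, had 109.8, 107 and 121 CPM in EV-depleted serum, 68.2, 101, 94.6 and 69.4 CPM in young serum and 98.8, 86.6, 94.7 and 113 CPM in saline. EV-depleted serum lay above young serum in every library, by a log2 of 0.45 ± 0.15 (1.37-fold; adjusted p 0.99998 by limma). The isomerase Eci1 averaged 108 ± 11.1 CPM in EV-depleted serum, 79.7 ± 17.1 CPM in young serum and 93.0 ± 15.4 CPM in saline. Eci2, a further isomerase, averaged 48.7 ± 2.29 CPM in EV-depleted serum, 44.5 ± 4.63 CPM in young serum and 47.6 ± 6.94 CPM in saline.

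Electron transfer flavoprotein takes electrons from the acyl-CoA dehydrogenases and hands them to its dehydrogenase in the inner membrane. Etfa, the alpha chain, had 180.5, 182 and 176 CPM in EV-depleted serum, 109, 167, 147 and 103 CPM in young serum and 158, 118, 152 and 164 CPM in saline. EV-depleted serum was above every library of the other groups and nearly constant. It had a log2 fold change of 0.48 ± 0.17 against young serum (1.39-fold; adjusted p 0.99998 by limma) and 0.29 against saline. Etfb, the beta chain, had 185, 228 and 148 CPM in EV-depleted serum, 122, 150.4, 170.3 and 113 CPM in young serum and 159, 188, 192 and 362 CPM in saline. Here saline was highest on average, which rested on replicate 6. Young serum stood at -0.64 ± 0.24 against saline (0.64-fold; adjusted p 0.187) and EV-depleted serum at -0.21. Without saline replicate 6 young serum stood at -0.38 and EV-depleted serum at 0.04. Etfdh, the membrane dehydrogenase, had 134, 121 and 136 CPM in EV-depleted serum, 85.9, 124, 111 and 77.0 CPM in young serum and 107, 81.7, 88.9 and 121 CPM in saline. It stood at 0.40 ± 0.18 in EV-depleted serum against saline (1.32-fold; adjusted p 0.412).

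Ucp3, a mitochondrial carrier whose transcript is known to rise in muscle with fatty acid supply, had 33.6, 29.3 and 66.2 CPM in EV-depleted serum, 42.1, 45.8, 72.5 and 41.4 CPM in young serum and 46.1, 38.5, 33.6 and 27.4 CPM in saline. It was the only member with a lower mean in EV-depleted than in young serum, at a log2 of -0.28 ± 0.28 (-0.09 without young serum replicate 3 and -0.63 without EV-depleted serum replicate 4). In each serum group 1 library, EV-depleted replicate 4 and young serum replicate 3, was well above the rest.

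Some counts may include reads of neighbours, since no strand setting is given in the sources used here. In GENCODE M21, exons of 11 members overlap exons of another gene in the table. The overlap was 81.4% of the exon length for Cpt1b (with Gm44502, on the same strand, 13.0 CPM on average) and 42.9% for Acadvl (with Dvl2, on the opposite strand, 9.17 CPM), and 16.1% or less for the others. Etfb shares 53.0% of its exon length with Gm45233, on the same strand, which is not among the genes of the table.

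**Figure D3:**
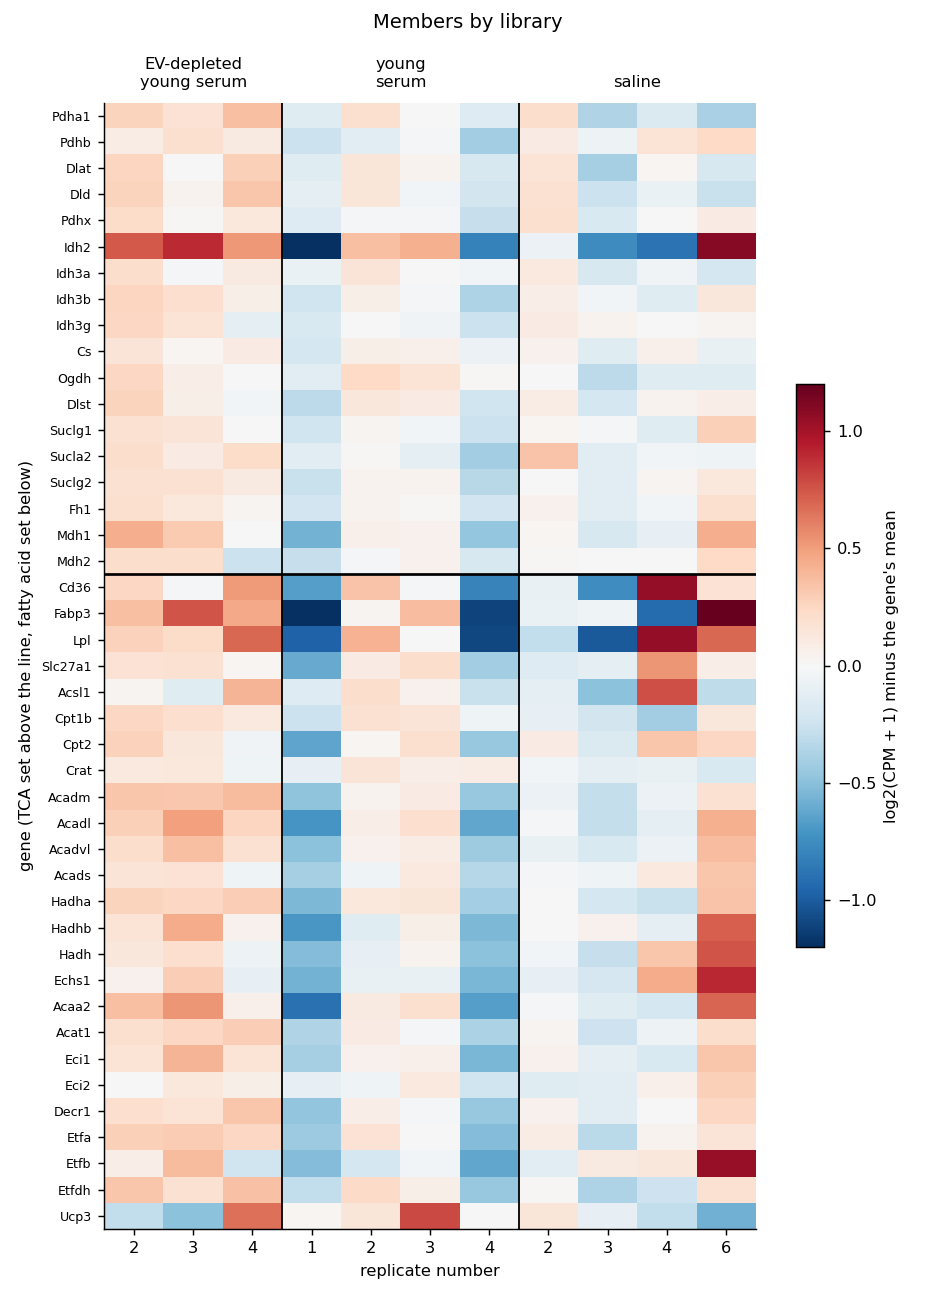
Log2(CPM + 1) of each of the 43 members minus its mean over the 11 libraries, with EV-depleted serum, young serum and saline libraries from left to right, numbered by replicate, and the TCA set above the fatty acid set; colours stop at the ends of the scale. Young serum replicates 1 and 4 are the low columns in both sets. Saline replicate 6 is the highest library of 10 of 25 fatty acid members and 6 of 18 TCA members, and the lowest of 2 and 3.

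Members of the fatty acid set spread more between libraries than those of the TCA set. Within groups, the SD of log2(CPM + 1) had a median of 0.29 over the fatty acid set (0.09 to 0.81) and 0.15 over the TCA set (0.11 to 0.81). The highest library was a median of 1.98-fold above the lowest in the fatty acid set and 1.49-fold in the TCA set. By group, the median SD of the fatty acid set was 0.13 in EV-depleted serum, 0.31 in young serum and 0.27 in saline. That of the TCA set was 0.11 in EV-depleted serum, 0.16 in young serum and 0.15 in saline. By these medians EV-depleted serum held the most even libraries for both sets, with 1 library fewer than the other groups. Some members went the other way: the SDs of Mdh2 (0.27), Idh3g (0.19) and Ucp3 (0.62) were largest in EV-depleted serum. The same medians over all genes were not taken.

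Each set was also summed up per library as a score, the mean of its members' log2(CPM + 1) after centring each gene on its mean. The fatty acid score was 0.19, 0.23 and 0.20 in EV-depleted serum, -0.50, 0.08, 0.12 and -0.47 in young serum, and -0.04, -0.23, 0.07 and 0.36 in saline. The TCA score was 0.26, 0.16 and 0.11 in EV-depleted serum, -0.29, 0.09, 0.04 and -0.27 in young serum, and 0.09, -0.19, -0.08 and 0.09 in saline. Young serum replicates 2 and 3 thus lay inside the saline range in both scores and replicates 1 and 4 below it. All EV-depleted serum libraries were above all young serum libraries in both scores.

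The fatty acid score minus the TCA score compares the sets inside 1 library. It was -0.07, 0.07 and 0.09 in EV-depleted serum, -0.21, -0.01, 0.08 and -0.20 in young serum, and -0.13, -0.04, 0.15 and 0.27 in saline. The groups overlapped, and the differences were 0.12 ± 0.10 (SE) for EV-depleted against young serum, -0.03 ± 0.12 for EV-depleted serum against saline and -0.15 ± 0.12 for young serum against saline. The sign or size of these rested on single libraries. Without saline replicate 6 the difference of EV-depleted serum and saline was 0.04 and that of young serum and saline -0.08. Without young serum replicate 1 that of the sera was 0.07. A shift of 1 set relative to the other was therefore not detectable over the spread between these libraries.

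**Figure D4:**
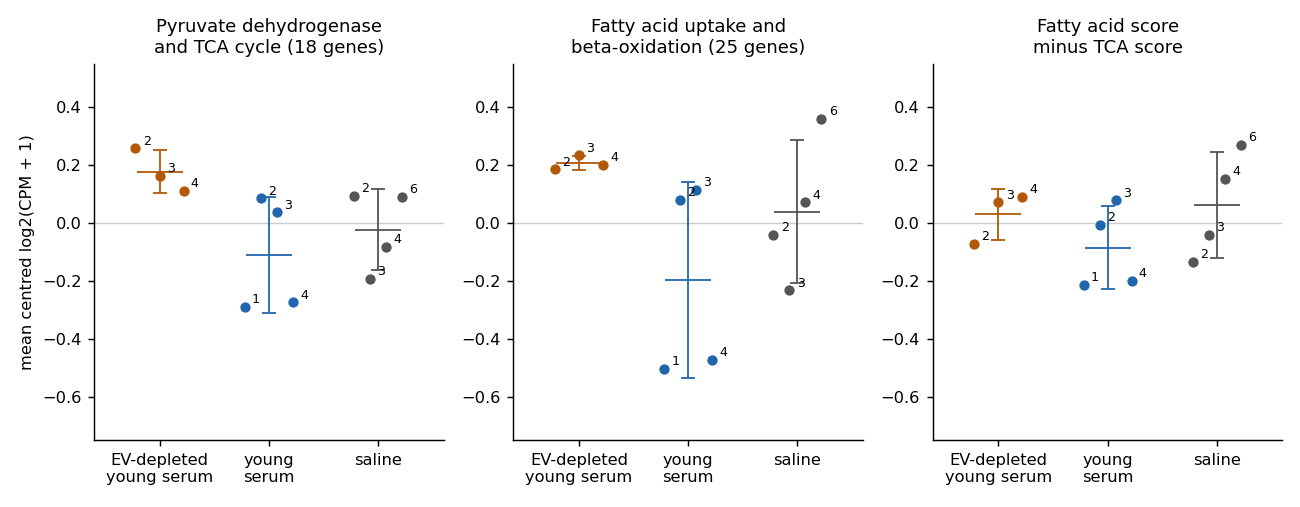
Mean centred log2(CPM + 1) of the TCA set, of the fatty acid set, and of the fatty acid set minus the TCA set, for each library (points, numbered by replicate) with the group mean and SD, for EV-depleted serum, young serum and saline. The EV-depleted serum libraries lie at 0.19 to 0.23 in the fatty acid score and 0.11 to 0.26 in the TCA score, and young serum replicates 1 and 4 at -0.50 and -0.47 in the fatty acid score.

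Markers of slow fibres differed widely between libraries. All 10 of 10 slow fibre markers were measured, and their summed level was 1461 to 2275 CPM in EV-depleted serum, 252 to 1694 CPM in young serum and 267 to 5606 CPM in saline. Myh7, the slow myosin heavy chain, had 340.0, 563 and 512 CPM in EV-depleted serum, 111, 192, 523 and 22.04 CPM in young serum, and 48.8, 43.2, 67.8 and 944 CPM in saline. The slow fibre score was 0.70, 1.37 and 1.09 in EV-depleted serum, -0.96, -0.14, 1.002 and -2.11 in young serum, and -0.92, -1.44, -1.20 and 2.60 in saline. Its lowest library was young serum replicate 4 and its highest saline replicate 6, the libraries at or near the ends of the fatty acid score. Between the ends the order differed. Saline replicates 3 and 4 were below young serum replicate 1 in the slow fibre score. In the fatty acid score they were above it, at -0.23 and 0.07 against -0.50. Young serum replicate 3 had 1.002 in the slow fibre score and 0.12 in the fatty acid score. The part of fibre type in the differences between groups was not tested.

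Fast fibre markers, 10 of 10 measured, summed to 133295 to 142963 CPM in EV-depleted serum, 147527 to 161336 CPM in young serum and 131740 to 161646 CPM in saline. Myh4, the type 2B myosin, and Atp2a1 had the highest levels of the 10 in every library. The fast fibre score, which weighs the 10 genes equally, averaged 0.09 in EV-depleted serum, -0.05 in young serum and -0.02 in saline. Myh2 and Myh1 are the myosins of the more oxidative fast fibres. Myh2 had 3157, 2737 and 2024 CPM in EV-depleted serum, 388, 2060.1, 1814 and 790.4 CPM in young serum and 1165, 448, 408 and 2119 CPM in saline. Myh1 had 3730.4, 3597 and 3434 CPM in EV-depleted serum, 1274, 3366, 3662 and 1094 CPM in young serum and 985, 1317, 1016 and 2103 CPM in saline. Young serum replicates 1 and 4 were the low young serum libraries in both, as in most members. Saline replicates 2, 3 and 4 were about as low in Myh1, with TCA scores of 0.09, -0.19 and -0.08. Not all fast markers were higher in EV-depleted serum: Atp2a1 had 25721 to 30677.5 CPM there and 32794 to 36415 CPM in young serum. Myh4 had 42328 to 53896 CPM in EV-depleted serum and 52515 to 69181 CPM in young serum. Actn3 had 7207 to 8642 and 8558 to 10896 CPM, and Casq1 2388 to 2753 and 2545 to 3147 CPM, in the same order. The ranges of Mylpf, Tnnt3, Tnni2 and Tnnc2 also overlapped between the sera, with higher means in EV-depleted serum. The part of fast fibre type in the members' levels was not tested. Adipocyte markers, 10 of 10 measured and including Fabp4, which is also a fatty acid binding protein, summed to 1909 to 2413 CPM in EV-depleted serum, 1516 to 2580 CPM in young serum and 1763 to 8597 CPM in saline, where replicate 4 had the highest sum. Endothelial markers (10 of 10) reached 364 CPM in EV-depleted serum, 350.5 CPM in young serum and 502 CPM in saline. Macrophage markers (10 of 10) reached 128 CPM in EV-depleted serum, 163 CPM in young serum and 351 CPM in saline. Red cell markers (5 of 6) summed to 255 to 282 CPM in EV-depleted serum, 89.1 to 250.2 CPM in young serum and 191 to 1488 CPM in saline. No measured marker of these lists was at 0 in every library, and what these cells add to the members' levels was not tested.

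**Figure D5:**
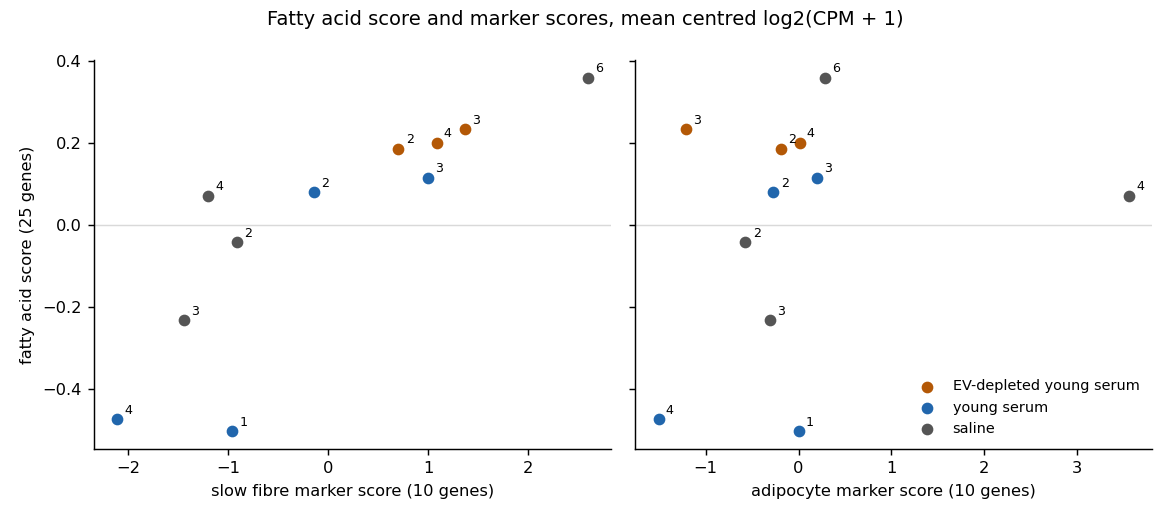
Fatty acid score of each library (vertical axis, mean centred log2(CPM + 1) of 25 genes) against its slow fibre score and its adipocyte score (horizontal axes, 10 genes each), for EV-depleted serum, young serum and saline, numbered by replicate. Saline replicate 6 lies at the right end of the slow fibre axis, at 2.60, and saline replicate 4 at the right end of the adipocyte axis, at 3.56.

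Another 47 genes of these pathways (remaining cycle enzymes, pyruvate dehydrogenase kinases and phosphatases, lipid droplet, peroxisomal and ketone body genes, and regulators) were all tested, and 0 passed the adjusted threshold in any comparison. In young serum against saline, 21 were higher and 26 lower, with 5 and 4 at an unadjusted p under 0.05, against 10.5% higher and 11.4% lower in the table. Acacb, the acetyl-CoA carboxylase whose malonyl-CoA inhibits Cpt1, had 352, 398, 348 and 402 CPM in young serum and 290.5, 222, 265 and 199.8 CPM in saline. These groups did not overlap, and the fold was 1.55 (log2 0.63, adjusted p 0.180 by limma). Pdpr, the regulatory chain of pyruvate dehydrogenase phosphatase, averaged 93.5 ± 24.9 CPM in young serum and 27.6 ± 27.5 CPM in saline (log2 2.25, adjusted p 0.180). Both passed at an adjusted p under 0.05 when saline replicate 2 was left out, where the table as a whole had 253 genes past it.

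In EV-depleted serum against saline, 26 of the 47 were higher and 21 lower, with 7 higher and 1 lower at an unadjusted p under 0.05, against 6.49% higher and 5.59% lower in the table. Pdk1, a kinase that inactivates pyruvate dehydrogenase, averaged 64.6 ± 4.67 CPM in EV-depleted serum and 44.0 ± 6.55 CPM in saline, with a fold of 1.47 (log2 0.55, adjusted p 0.299 by limma). Acacb averaged 339 ± 61.7 CPM in EV-depleted serum and 244 ± 41.0 CPM in saline (log2 0.47, adjusted p 0.391). In EV-depleted against young serum, 34 were higher and 13 lower, with 2 and 0 at an unadjusted p under 0.05, against 1.75% and 0.478% of the table. The 2 were Sdhb, the iron-sulfur subunit of succinate dehydrogenase, at 399.7 ± 40.3 CPM in EV-depleted serum and 281 ± 66.4 CPM in young serum (log2 0.53), and Esrrg. The product of Esrrg is ERR gamma, and its level was 23.0 ± 5.11 CPM in EV-depleted serum and 13.4 ± 4.76 CPM in young serum (log2 0.77). Both had an adjusted p of 0.99998 by limma. Median log2 fold changes of the 47 were -0.05 in young serum against saline, 0.06 in EV-depleted serum against saline and 0.13 between the sera.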

How the data were processed

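Gene expression was measured by RNA sequencing of 11 libraries. Tools named in the submitters' processing notes are FastQC, STAR and DESeq2, with the build mm10; roles, versions and strand settings are not given in the sources used here. The deposited CPM table was scaled by the authors to 1000000 per library over its 18269 genes, with an offset of 0.0001 that its zeros show. In the deposited TPM table the authors gave the same CPM divided by genomic span, introns included (coefficient of variation at most 0.000196%), so it adds no measurement and served for gene positions only; its end positions are given minus 1. Low values gave the depth, but only 75.6% to 79.0% of values between 0.01 and 1 CPM were whole reads within 0.1 read, so no count model was used.

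Genes at 1 CPM or more in at least 3 libraries were tested (5082 left out) as log2(CPM + 1), with a pseudocount of 1, which understates the change of low genes. limma 3.58.1 (R 4.3.3) fitted the 3 groups in 1 model with a variance trend. Tests were two-sided with Benjamini-Hochberg adjustment over all 13187 genes, and the steps were tested on simulated data. Members and lists were chosen with earlier results of these data known, so sets are described by counts and medians with no test. Per comparison and set, the 4 members with the smallest p were given in full, and of the other pathway genes the 2 smallest. Alternatives were another pseudocount, filter, scaling, array weights, fit of 2 groups, a replicate block and libraries left out. Promoter sequences are from RefSeq (GRCm38.p6). Figures were drawn with matplotlib 3.10.9.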

Additional observations from a re-analysis of the deposited data

Results flagged for a closer look

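Across the 92 groups of 4 libraries checked (each member in each such group, with the set scores), 5 had 1 library far from the other 3 by Dixon's ratio, about the number that chance gives at 1 in 20. The checks share the same libraries and are not independent, so this count does not tell whether a single library is unusual. In saline, replicate 6 was the high one in all 4 cases: Mdh2 at 859 CPM against 731 to 734, Hadhb at 277 CPM against 154 to 174, Acaa2 at 216 CPM against 114 to 130 and Etfb at 362 CPM against 159 to 192. In young serum, replicate 3 was high for Ucp3, at 72.5 CPM against 41.4 to 45.8. Saline replicate 6 also had the highest slow fibre score, 2.60; the part of fibre type in these values was not tested.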

How the results depend on the processing

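In every setting run, 0 members passed an adjusted p under 0.05 except with array weights, which count libraries unequally (4.19 for EV-depleted serum replicate 2, 0.21 for saline replicate 4) and whose estimate stopped before it converged. With them 1 member (Ogdh) passed in young serum against saline and 8 in EV-depleted serum against saline, where the TCA median was 0.28; the fatty acid median was 0.36 there and -0.00 in young serum against saline. Array weights called 3441, 1794 and 24 genes of the table in the 3 comparisons. Without young serum replicates 1 and 4 the medians of young serum against saline turned to 0.02 (TCA set) and 0.069 (fatty acid set). The cause of these shifts was not tested. With the replicate block 0 members passed in each comparison. Number 1 occurs only in young serum and number 6 only in saline. The block therefore fits young serum replicate 1 and saline replicate 6 exactly, and they add nothing to the differences between groups. Its medians are those of a fit without these libraries as well as of a pairing by number. The medians of the TCA and fatty acid sets were then -0.02 and -0.05 in young serum against saline. They were 0.16 and 0.27 in EV-depleted serum against saline, and 0.21 and 0.34 between the sera. Deviations of same-numbered libraries correlated at -0.28 to 0.30, and those of different-numbered libraries at -0.50 to 0.54. Whether the numbers pair the libraries cannot be told from so few pairs. Leaving out each replicate in turn, the TCA median ranged from -0.18 to -0.07, 0.10 to 0.17 and 0.19 to 0.28, and the fatty acid median from -0.32 to -0.12, 0.15 to 0.27 and 0.34 to 0.52, in the same 3 comparisons. The lowest value of any member was 27.4 CPM, in libraries of at least 36.4 times 1000000 reads.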
